A study of Mus musculus with 6 samples.

Results

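The subject is a set of 39 genes that make the secreted proteins and metabolic enzymes of the liver, here called the liver antigen genes, measured in thymic epithelial cells (TEC). The set was chosen by name, as genes of hepatocytes, but with earlier results of these data known, as were the comparison lists below. Their counts beside those of all genes are therefore a description. All 39 have a probe (47 probes in all) on an array that covers 28034 genes. The samples were CD45- EpCAM+ TEC of 4-week-old C57BL/6 mice carrying the transgene Tg(Meis1-EGFP)FO156Gsat/Mmcd, a bacterial artificial chromosome in which Meis1 regulatory sequence drives EGFP. Every gate carried this transgene. The cells were sorted by EGFP and by forward scatter, which follows cell size. Meis1-high cells were small with bright EGFP, Meis1-low cells were large with intermediate EGFP, and Meis1-negative cells were small without EGFP. Each gate was measured on 2 one-colour arrays, each from a pool of 6 mice, and replicate 1 of every gate lay on slide 1 and replicate 2 on slide 2. Meis1-low differs from both other gates in size as well as in reporter level, and these cannot be told apart there, whereas Meis1-high and Meis1-negative are both small. The reporter marks cells by transgene activity, and the labels do not state whether the pools of 1 replicate number came from the same mice.

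Medullary TEC express genes that are otherwise restricted to peripheral organs, among them liver, pancreas and gut, and present their products to developing T cells. T cells that bind these self-antigens strongly are deleted or become regulatory T cells. The transcriptional regulator Aire, made by mature medullary TEC, induces many of these genes, and others are expressed without it. In the liver, the same genes are expressed under the hepatocyte transcription factors HNF4, FOXA and C/EBP, and their products carry lipids, vitamins and hormones in plasma, form the clotting system, respond to inflammation or run amino acid and glucose metabolism.

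A level is the log2 signal of a probe relative to its array's own 75th percentile, so 0 is the 75th percentile and each unit is a doubling of the signal. Levels of different probes are not comparable, so comparisons are made between arrays for the same probe. A probe is called well above background where the scanner software marked it so. The mark was carried by 53.1% to 69.6% of spots per array, with the lowest shares on replicate 1 of Meis1-high and of Meis1-negative (54.2%). The signal at the 75th percentile was 73.3 on Meis1-high replicate 1 and 114.2 on Meis1-negative replicate 1, and between 136.5 and 165.2 on the other arrays. Meis1 itself had levels of 0.24 and 0.12 in Meis1-high, of -2.35 and -1.61 in Meis1-low and of -3.20 and -0.99 in Meis1-negative, so both Meis1-high arrays were the highest. Epcam, the epithelial marker used in the sort, was well above background on all arrays (levels of 2.58 to 4.79). The 2 Meis1-negative arrays stood apart from each other. The CD45 gene Ptprc had levels of 5.16 and 3.17 on them and no higher than 0.43 elsewhere. The T cell receptor chain gene Cd3e had levels of 6.82 and 1.12 on them and between -1.98 and 0.52 elsewhere. The median level of 18 thymocyte and T cell markers was 3.46 on Meis1-negative replicate 1 and -0.24 on replicate 2, and between -1.99 and -1.85 on the other 4 arrays.

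Liver antigen transcripts were detected widely on both Meis1-low arrays, and Meis1-negative replicate 2 matched Meis1-low replicate 1. Of the 39 genes, 35 and 36 were well above background on the Meis1-low arrays, 22 and 31 on those of Meis1-high, and 23 and 35 on those of Meis1-negative. As shares, these are 89.7% and 92.3% in Meis1-low, 56.4% and 79.5% in Meis1-high, and 59.0% and 89.7% in Meis1-negative. The same shares over all genes were 62.8% and 68.0%, 53.6% and 65.1%, and 53.7% and 69.0%, in that order of gates. Detection of the liver genes thus exceeded that of all genes on every array, by the widest margin on the Meis1-low arrays and by the narrowest on the replicate 1 arrays of the other gates. Those replicate 1 arrays also had the lowest signals at the 75th percentile (73.3 and 114.2). The part of array brightness in the counts was not tested. Altogether 19 genes were well above background on all 6 arrays, and 2 (Ttr and F9) on none, which is also the case for 22.1% of all genes. A gene entered the test if both arrays of some gate marked it, which held for 34 of the 39 and for 65.0% of all genes. A gene that entered only through the gate where it is bright had to differ, so counts and medians below run over all 39.

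**Figure D1:**
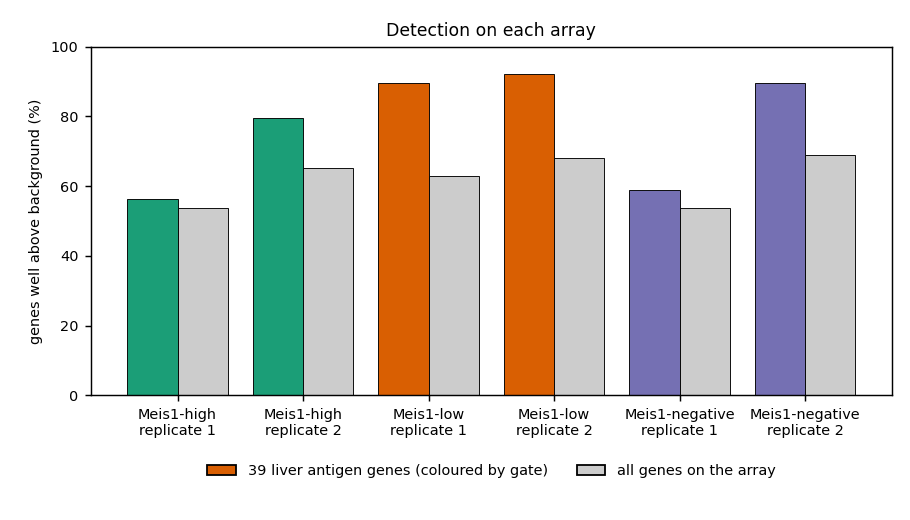
Share of genes well above background on each array, in percent, for the 39 liver antigen genes (bars coloured by gate) and for all 28034 genes (grey bars). The liver genes reach 89.7% and 92.3% on the Meis1-low arrays, against 62.8% and 68.0% of all genes. On replicates 1 and 2 they reach 56.4% and 79.5% in Meis1-high, and 59.0% and 89.7% in Meis1-negative.

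The first comparison asks how small Meis1-high cells differ from large Meis1-low cells in liver antigen transcripts. Their median level was -2.58 and -2.38 on the Meis1-high arrays and -0.60 and -0.52 on the Meis1-low arrays, while the median of all genes lay between -2.56 and -2.09 on these 4 arrays. The highest of the 3 gate means was that of Meis1-low for 32 of the 39 genes, against 29.6% of all genes, and that of Meis1-high for the other 7. The 2 gates did not overlap for 29 genes. Both Meis1-high arrays were below both Meis1-low arrays for 26 of them, against 21.8% of all genes, and above for 3, against 32.3% of all genes. Within slides, 29 genes gave the lower value to Meis1-high both times (29.1% of all genes) and 5 the higher value (42.0% of all genes). The median log2 difference, Meis1-high minus Meis1-low, was -1.84 over the 39 genes and 0.19 over all genes, with -1.94 on slide 1 and -1.88 on slide 2 for the liver genes. All genes include those too dim to enter the test, and over the 18224 tested genes the median was -0.15. With normexp background correction the median of the 39 liver genes kept its sign and shrank to -0.59 (all genes -0.16).

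Single genes did not reach the threshold. limma, fitted across all 18224 tested genes with 2 arrays per gate, called 0 of the 34 tested liver genes at an adjusted p under 0.05, as it called 0.0% of all genes. Adjusted p values of the liver genes ran from 0.25 to 0.893. At an unadjusted p under 0.05, in a fit of every gene without the filter, 17 of the 39 were lower in Meis1-high and 0 higher, against 5.88% and 4.67% of all genes. With normexp background correction, 5 liver genes (Apoc2, Fgb, Fgg, Itih3 and Mup1) passed the adjusted threshold, all lower in Meis1-high, with adjusted p between 0.0029 and 0.0271. In that setting limma called 103 genes higher and 174 lower (0.955%) of all 18224 genes. Its prior degrees of freedom were infinite there, so every gene was given the same spread, whatever its own replicates showed. In these bulk samples, fewer cells that express a gene and less of its RNA per cell cannot be told apart.

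**Figure D2:**
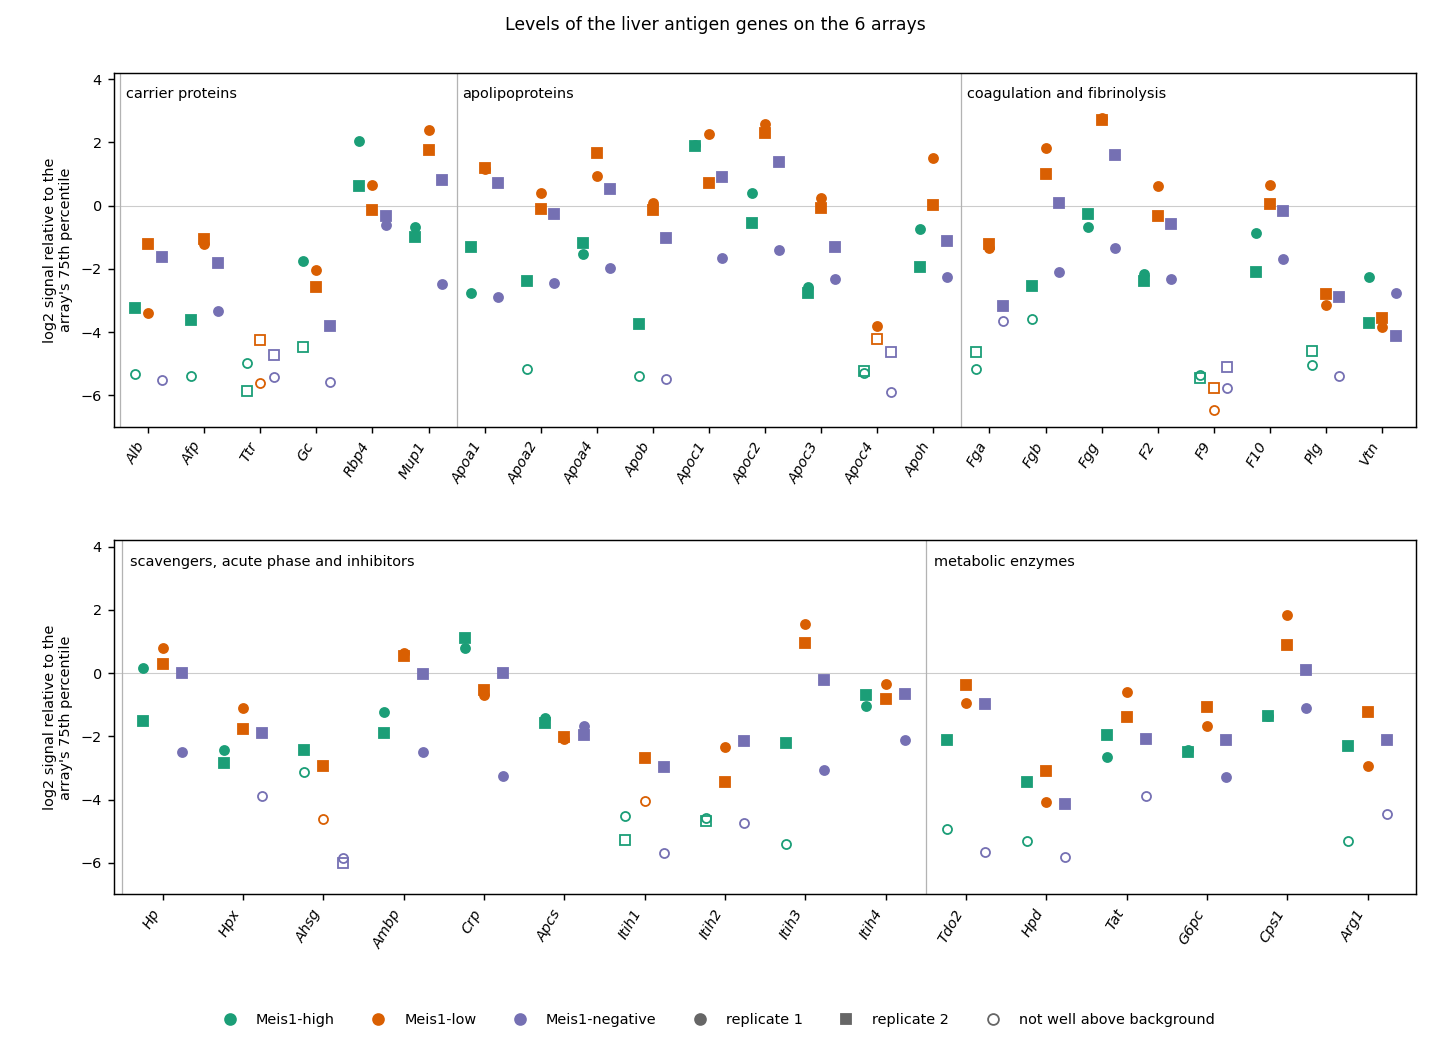
Level of each liver antigen gene on the 6 arrays, as log2 signal relative to the array's 75th percentile, with genes ordered by role. Circles are replicate 1, squares replicate 2, and open symbols are signals not well above background. The Meis1-low symbols lie above both Meis1-high symbols for 26 of the 39 genes, and Crp, Apcs and F9 show the opposite order.

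Promoter letters are shown for the members as a description of their sequence, and no motif searched stood in most of them. RefSeq sequence (GRCm38.p6) of the 250 bases before the start was matched for 31 of the 39 genes by symbol, and 27025 promoters of all genes were scanned alongside. Each motif was searched on both strands and separately from the others, so matches may overlap. The C/EBP motif TTGCNNAA stood in 10 of the 31 liver promoters (32.3%) and in 9.55% of all promoters. The TATA box letters TATAAA stood in 6 (19.4%) and 12.98% of all, the FOXA motif TGTTTAC in 2 (6.45%) and 3.06%, and the HNF4 motif CAAAGTCCA in 0 and 0.377%. A match is not a measured binding site. The 10 with the C/EBP motif were Afp, Ahsg, Alb, Apoa2, Apob, F9, Fga, Fgb, Hpx and Itih2. For 7 of them it lay within 100 bases of the start. Those windows are shown 5′ to 3′ on the gene's strand, ending at the base before the start, with the motif (or its reverse complement) in capitals.
Alb (chr5:90460770-90460869, + strand): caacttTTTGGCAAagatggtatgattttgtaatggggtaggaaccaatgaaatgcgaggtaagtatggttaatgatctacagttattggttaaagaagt
Afp (chr5:90490614-90490713, + strand): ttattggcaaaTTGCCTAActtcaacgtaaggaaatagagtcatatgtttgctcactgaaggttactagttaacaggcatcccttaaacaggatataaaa
Apob (chr12:7977577-7977676, + strand): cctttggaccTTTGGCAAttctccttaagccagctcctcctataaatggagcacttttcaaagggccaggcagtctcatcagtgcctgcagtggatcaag
Fgb (chr3:83049864-83049963, - strand): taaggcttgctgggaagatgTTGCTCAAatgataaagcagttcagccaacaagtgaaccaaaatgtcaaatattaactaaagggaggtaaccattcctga
F9 (chrX:59999364-59999463, + strand): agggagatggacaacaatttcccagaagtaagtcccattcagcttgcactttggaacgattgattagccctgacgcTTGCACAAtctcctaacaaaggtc
Ahsg (chr16:22891915-22892014, + strand): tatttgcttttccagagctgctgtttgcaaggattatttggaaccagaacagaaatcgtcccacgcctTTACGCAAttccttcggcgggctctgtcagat
Itih2 (chr2:10130684-10130783, - strand): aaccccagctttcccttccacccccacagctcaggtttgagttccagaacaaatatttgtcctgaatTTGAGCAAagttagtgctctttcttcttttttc
The motif began 24 bases before the start in F9, 32 in Ahsg, 33 in Itih2, 80 in Fgb, 89 in Afp, 90 in Apob and 94 in Alb. Of these 7 genes, Afp, Apob, Fgb and Itih2 were lower on both Meis1-high arrays than on both Meis1-low arrays. The same held for 26 of all 39 liver genes and for 21.8% of all genes, and a link with the motif was not tested. Alb and Ahsg overlapped, and F9 was never above background.

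Coagulation and fibrinolysis genes include the fibrinogen chains. Fibrinogen is assembled from the products of Fga, Fgb and Fgg, which lie side by side on chromosome 3, and thrombin turns it into fibrin. Fgb (probe at mm9 chr3:82846334-82846393) had levels of -3.60 and -2.55 in Meis1-high, of 1.83 and 1.01 in Meis1-low and of -2.10 and 0.07 in Meis1-negative. Fgg (mm9 chr3:82818825-82818884) had levels of -0.69 and -0.28, 2.78 and 2.71, and -1.35 and 1.60 in the same order. Fga (mm9 chr3:82835678-82835737) had levels of -5.15 and -4.62, -1.34 and -1.22, and -3.64 and -3.18. All 3 chains were highest on both Meis1-low arrays, with no overlap with either other gate. Both Meis1-high arrays lay below both Meis1-negative arrays for Fga and Fgb, but not for Fgg. The log2 difference of the first 2 gates came to -4.50 ± 0.88 for Fgb (SE, n = 2 per gate here and below; adjusted p = 0.25) and -3.23 ± 0.97 for Fgg (adjusted p = 0.278). Fga was not well above background on either Meis1-high array and was there at least 5.07-fold lower than in Meis1-low (adjusted p = 0.25). This bound sets the Meis1-low mean against, on each Meis1-high array, the higher of the probe's own signal and the dimmest signal well above background, and bounds below are made the same way. Fgb was well above background on 1 of the 2 Meis1-high arrays.

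The clotting enzyme genes followed with smaller differences. F2, which encodes prothrombin, had levels of -2.16 and -2.39 in Meis1-high, of 0.63 and -0.33 in Meis1-low and of -2.31 and -0.58 in Meis1-negative. F10, the factor that activates prothrombin, had levels of -0.86 and -2.09, 0.66 and 0.06, and -1.68 and -0.17. For both genes the Meis1-low arrays lay above every other array, while 1 Meis1-negative array lay near Meis1-high and the other nearer Meis1-low. Meis1-high and Meis1-low differed by -2.43 ± 0.78 for F2 (adjusted p = 0.291) and by -1.84 ± 0.78 for F10 (adjusted p = 0.385). Plg, which encodes plasminogen, the precursor of the enzyme that dissolves fibrin, was too dim in Meis1-high to pass background and lay there at least 1.58-fold below Meis1-low (adjusted p = 0.433). Vtn, an adhesive plasma protein, ran against the group, with levels of -2.25 and -3.72 in Meis1-high, of -3.84 and -3.56 in Meis1-low and of -2.78 and -4.13 in Meis1-negative. Its gates overlapped, and the difference of 0.71 ± 0.78 (adjusted p = 0.742) had opposite signs on the slides (1.59 and -0.16). F9, clotting factor IX, never passed background.

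Apolipoproteins are the protein part of lipoprotein particles. Apob is the structural protein of chylomicrons and very low density lipoprotein, and its probe (mm9 chr12:8023194-8023253) had levels of -5.40 and -3.74 in Meis1-high, of 0.08 and -0.15 in Meis1-low and of -5.49 and -1.02 in Meis1-negative. It was well above background on replicate 2 but not on replicate 1 of both Meis1-high and Meis1-negative. Meis1-high minus Meis1-low came to -4.54 ± 1.37 (adjusted p = 0.279), and to -5.48 on slide 1 and -3.59 on slide 2. The 4 other Apob probes gave log2 differences from -4.05 to -1.597, all lower in Meis1-high. Each was well above background on only 1 or 3 of the 6 arrays, so these sizes rest on dim, poorly measured signals. Apoa2, a protein of high density lipoprotein, had levels of -5.18 and -2.37 in Meis1-high, of 0.39 and -0.09 in Meis1-low and of -2.45 and -0.28 in Meis1-negative. Its Meis1-high arrays lay below both Meis1-low arrays by a mean of -3.93 ± 1.10 (adjusted p = 0.258), and 1 of them was above background. With dim signals raised to the lowest signal well above background on each array, the differences shrank to -3.44 for Apob and -2.94 for Apoa2.

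The cluster of Apoa1, Apoc3 and Apoa4 on chromosome 9 showed the same order of Meis1-high and Meis1-low in each gene. Apoa1, the main protein of high density lipoprotein, had levels of -2.75 and -1.32 in Meis1-high, of 1.15 and 1.17 in Meis1-low and of -2.90 and 0.72 in Meis1-negative. Apoc3, which inhibits lipoprotein lipase, had levels of -2.58 and -2.75, 0.23 and -0.08, and -2.32 and -1.31. Apoa4, a lipoprotein component made mainly by intestine and also by mouse liver, had levels of -1.52 and -1.17, 0.95 and 1.66, and -1.97 and 0.52. In all 3 genes both Meis1-low arrays lay above all other arrays. Meis1-high minus Meis1-low was -3.20 ± 1.17 for Apoa1 (adjusted p = 0.327), -2.74 ± 0.64 for Apoc3 (adjusted p = 0.254) and -2.65 ± 0.89 for Apoa4 (adjusted p = 0.299). A second Apoc3 probe differed by -2.67. Their neighbour Apoa5, not one of the 39, differed by -2.84 ± 1.21 (adjusted p = 0.384) and was above background on 4 arrays.

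The chromosome 7 cluster of Apoc2, Apoc4, Apoc1 and Apoe was not uniform. Apoc2, the activator of lipoprotein lipase, had levels of 0.41 and -0.57 in Meis1-high, of 2.57 and 2.31 in Meis1-low and of -1.41 and 1.38 in Meis1-negative. Apoc1, a small exchangeable apolipoprotein that macrophages also make, had levels of 1.91 and 1.88, 2.26 and 0.73, and -1.65 and 0.92. Apoc2 was thus highest on both Meis1-low arrays, whereas Apoc1 overlapped between Meis1-high and Meis1-low. The differences were -2.51 ± 0.96 for Apoc2 (adjusted p = 0.345) and 0.40 ± 0.97 for Apoc1 (adjusted p = 0.893), with Apoc1 at -0.36 and 1.16 on the slides. Apoe, which is no member and is expressed by many cell types, had levels of 5.24 and 5.05 in Meis1-high, of 2.59 and 3.06 in Meis1-low and of 0.99 and 3.32 in Meis1-negative. It was higher on both Meis1-high arrays than on every other, with a difference of 2.32 ± 0.85 from Meis1-low (adjusted p = 0.327). Apoc4 was well above background on 1 array only, Meis1-low replicate 1. Apoh, the phospholipid-binding beta-2-glycoprotein I, had levels of -0.75 and -1.93 in Meis1-high, of 1.52 and 0.01 in Meis1-low and of -2.27 and -1.12 in Meis1-negative, and differed by -2.10 ± 0.82 between the first 2 gates (adjusted p = 0.352). The median difference of the 9 apolipoprotein genes was -2.65, and for 8 of them both slides gave the lower value to Meis1-high.

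Among the carrier proteins, some gates overlapped and others did not. Albumin, the main plasma carrier, is encoded by Alb (mm9 chr5:90901598-90901657), which had levels of -5.32 and -3.24 in Meis1-high, of -3.38 and -1.22 in Meis1-low and of -5.51 and -1.62 in Meis1-negative. The gates overlapped, replicate 2 was the brighter array in every gate, and only Meis1-low had both arrays above background. Within slides Alb differed by -1.94 and -2.01, and the fitted difference was -1.97 ± 1.41 (adjusted p = 0.605). Its neighbour Afp, the fetal counterpart of albumin (mm9 chr5:90937781-90937840), had levels of -5.40 and -3.63 in Meis1-high, of -1.22 and -1.05 in Meis1-low and of -3.33 and -1.81 in Meis1-negative. Here the gates did not overlap: the Meis1-high arrays were the lowest and the Meis1-low arrays the highest. Afp differed between these by -3.38 ± 0.84 (adjusted p = 0.254), with 1 Meis1-high array above background. With dim signals raised to the lowest signal well above background, its difference was -2.28.

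Gc, the vitamin D binding protein, had levels of -1.74 and -4.46 in Meis1-high, of -2.04 and -2.58 in Meis1-low and of -5.58 and -3.80 in Meis1-negative. Meis1-high and Meis1-low overlapped, and the difference of -0.79 ± 1.03 (adjusted p = 0.785) changed sign between slides (0.30 and -1.88). Rbp4, the plasma carrier of retinol, also made by adipose tissue, had levels of 2.04 and 0.63 in Meis1-high, of 0.67 and -0.14 in Meis1-low and of -0.60 and -0.32 in Meis1-negative. Both Meis1-high arrays exceeded both Meis1-negative arrays, but overlapped with Meis1-low, from which Rbp4 differed by 1.07 ± 0.72 (adjusted p = 0.582). Ttr, the thyroxine carrier transthyretin, passed background on none of the arrays.

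The Mup1 probe stands for the major urinary proteins, pheromone carriers of mouse liver encoded by near-identical copies that the probe does not separate. It had levels of -0.68 and -0.99 in Meis1-high, of 2.38 and 1.77 in Meis1-low and of -2.47 and 0.81 in Meis1-negative. Both Meis1-low arrays were above all others, with Meis1-high minus Meis1-low at -2.91 ± 1.05 (adjusted p = 0.321). Of 7 other Mup genes with a probe, looked up because of this near identity, Mup4 differed by -3.67 ± 1.12 (adjusted p = 0.281) and Mup6 by -2.76 ± 0.80 (adjusted p = 0.267). Mup3, Mup8 and Mup10 were also lower on both Meis1-high arrays than on both Meis1-low arrays. Mup5 differed by -0.28 ± 0.63 (adjusted p = 0.882), and Mup9 was not above background on any array.

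Among scavengers, acute phase proteins and inhibitors, genes ran in both directions. Itih3, a heavy chain of the inter-alpha-trypsin inhibitor that binds hyaluronan (mm9 chr14:31721841-31721900), had levels of -5.40 and -2.22 in Meis1-high, of 1.54 and 0.95 in Meis1-low and of -3.05 and -0.23 in Meis1-negative. The Meis1-low arrays were the highest, and only replicate 2 of Meis1-high was above background. Its difference of -5.06 ± 1.26 (adjusted p = 0.254) was the lowest fitted value of the 34 liver genes tested and spread from -6.94 on slide 1 to -3.17 on slide 2. The slide 1 value rests on a Meis1-high signal that was not above background. On slide 2, Fgb (-3.565) and Apob (-3.59) had lower differences than Itih3. Itih4, an acute phase relative and close neighbour of Itih3 on chromosome 14, had levels of -1.04 and -0.71, -0.33 and -0.80, and -2.12 and -0.66. Its Meis1-high and Meis1-low arrays overlapped, with a difference of -0.31 ± 0.71 (adjusted p = 0.886). Itih2, another heavy chain, did not pass background in Meis1-high and lay there at least 1.65-fold below Meis1-low (adjusted p = 0.489). Itih1, which lies in the same cluster as Itih3 and Itih4, was above background on 1 Meis1-low and 1 Meis1-negative array and was not tested.

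Crp and Apcs, the adjoining genes of the short pentraxins, C-reactive protein and serum amyloid P component, went the other way. Crp (mm9 chr1:174629452-174629511) had levels of 0.81 and 1.12 in Meis1-high, of -0.69 and -0.52 in Meis1-low and of -3.27 and -0.01 in Meis1-negative. Apcs (mm9 chr1:174824959-174825018) had levels of -1.42 and -1.57, -2.08 and -2.01, and -1.67 and -1.96. Both Meis1-high arrays were above every other array for both genes. Crp differed between Meis1-high and Meis1-low by 1.57 ± 1.03 (adjusted p = 0.574), with 1.49 and 1.64 on the slides, and Apcs by 0.55 ± 0.58 (adjusted p = 0.733). With F9, which was never above background, these were the genes without overlap that were higher in Meis1-high.

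Hp, the haemoglobin scavenger haptoglobin, had levels of 0.18 and -1.50 in Meis1-high, of 0.79 and 0.28 in Meis1-low and of -2.48 and 0.00 in Meis1-negative. Hpx, the haem scavenger hemopexin, had levels of -2.44 and -2.86, -1.11 and -1.78, and -3.89 and -1.89. Ambp, the precursor of alpha-1-microglobulin and the inhibitor bikunin, had levels of -1.22 and -1.90, 0.63 and 0.55, and -2.50 and -0.02. In each, both Meis1-high arrays lay below both Meis1-low arrays, by a small gap for Hp and a wide one for Ambp. The differences were -1.20 ± 0.98 for Hp (adjusted p = 0.652), -1.21 ± 0.80 for Hpx (adjusted p = 0.581) and -2.15 ± 0.88 for Ambp (adjusted p = 0.372). Ahsg, which encodes fetuin-A, an inhibitor of mineral deposition, was above background only on replicate 2 of Meis1-high and of Meis1-low, and was not tested. Its levels were -3.11 and -2.44 in Meis1-high, and -5.86 and -5.995 in Meis1-negative, where it did not pass background. No bound is given, because Meis1-high replicate 1 did not pass background either.

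All 6 enzyme genes gave the lower value to Meis1-high, against Meis1-low, within both slides. Cps1, the first enzyme of the urea cycle, had levels of -1.37 and -1.36 in Meis1-high, of 1.85 and 0.90 in Meis1-low and of -1.11 and 0.10 in Meis1-negative. The 3 gates did not overlap, with Meis1-high the lowest, and Meis1-high minus Meis1-low was -2.74 ± 0.70 (adjusted p = 0.254). Tdo2, which opens tryptophan breakdown, had levels of -4.92 and -2.12, -0.94 and -0.37, and -5.65 and -0.97. Tat, the tyrosine aminotransferase, had levels of -2.67 and -1.95, -0.60 and -1.38, and -3.90 and -2.08. G6pc, which releases glucose from glucose 6-phosphate, had levels of -2.45 and -2.51, -1.67 and -1.09, and -3.29 and -2.11. In these 3 genes too, Meis1-low was above Meis1-high on every array. They differed by -2.86 ± 1.54 for Tdo2 (adjusted p = 0.489), -1.32 ± 0.80 for Tat (adjusted p = 0.536) and -1.10 ± 0.67 for G6pc (adjusted p = 0.542). The gates overlapped for Arg1, the arginase of the urea cycle that macrophages also make (-1.71 ± 1.23, adjusted p = 0.611), and for Hpd, which acts in tyrosine breakdown (-0.80 ± 0.91, adjusted p = 0.752). Tdo2, Hpd and Arg1 were above background on replicate 2 and not on replicate 1 in Meis1-high and Meis1-negative.

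**Figure D3:**
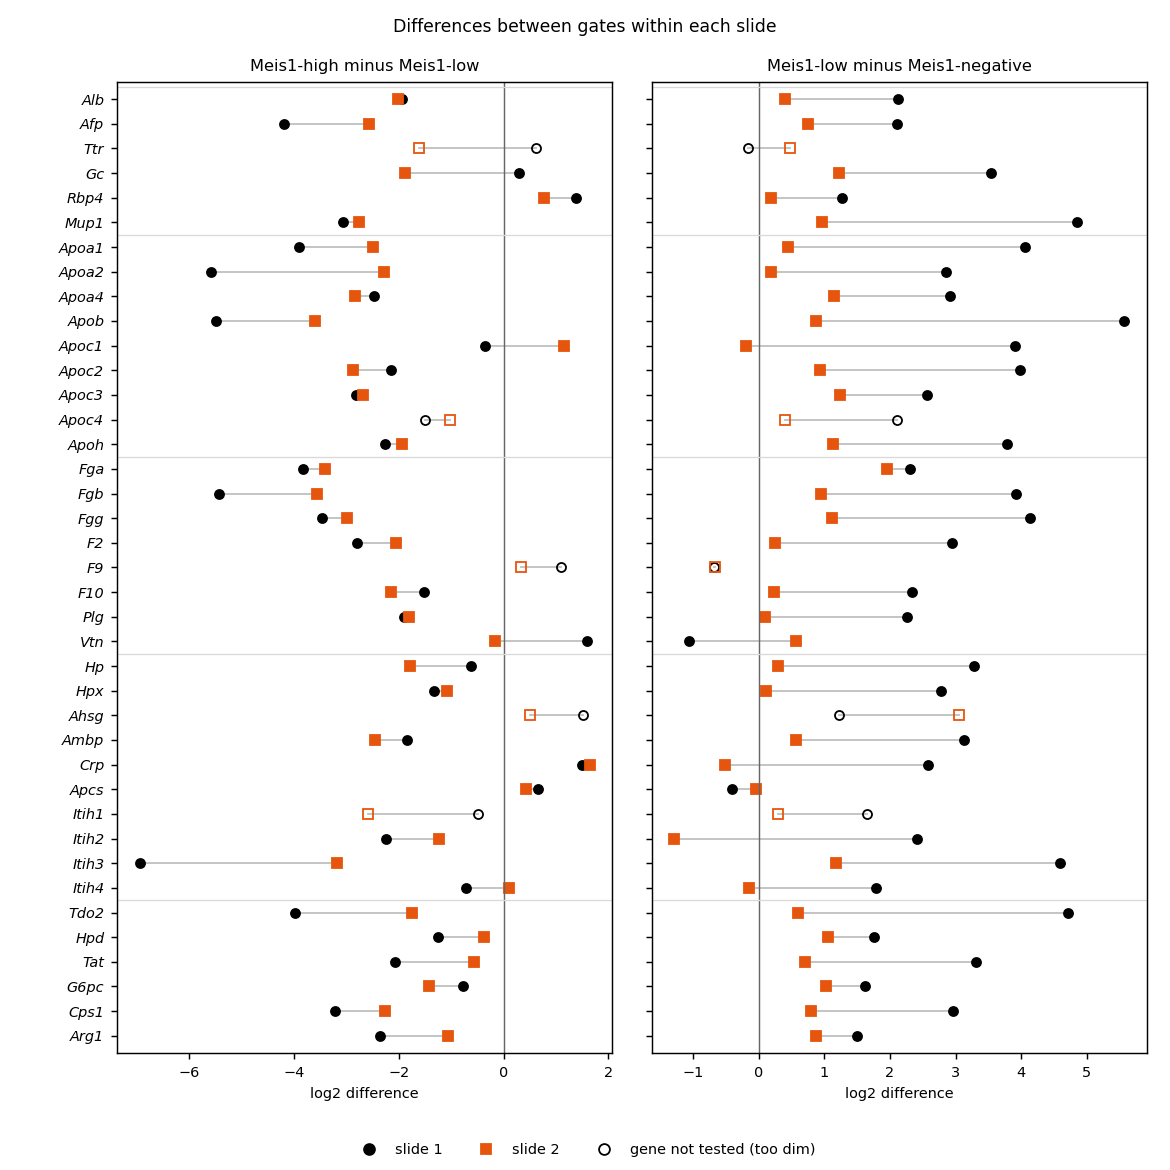
Log2 difference between gates within each slide for the 39 genes, Meis1-high minus Meis1-low on the left and Meis1-low minus Meis1-negative on the right. Black circles are slide 1, orange squares slide 2, open symbols are genes too dim to be tested, and a grey line joins the slides of a gene. On the left 29 genes lie below 0 on both slides, and on the right 31 lie above 0 on both slides, with the larger values on slide 1 (medians of 2.58 and 0.57).

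The comparison of Meis1-low with Meis1-negative shares its Meis1-low arrays with the first comparison. Liver genes were higher in Meis1-low than in Meis1-negative on both slides for 31 of the 39 (26.9% of all genes) and lower on both for 2 (26.8%). Both Meis1-low arrays were above both Meis1-negative arrays for 27 (17.3% of all genes) and below for 2 (15.7%). The median log2 difference was 1.59, against -0.12 over all genes and 0.05 over tested genes. For the liver genes it was 2.58 on slide 1 but 0.57 on slide 2. The same median was 1.75 for enterocyte genes, 1.51 for mature medullary and 1.07 for pan-epithelial markers, from lists described below. Apart from thymocyte markers (-3.15), the other lists ran down to 0.33 (fibroblast). limma called 0 of 34 (0.0% of all genes), with adjusted p from 0.56 to 0.943, and in the fit without the filter 13 genes were higher in Meis1-low at an unadjusted p under 0.05 (4.04% of all genes) and 0 lower (2.66%). Of the named genes, Apob differed by 3.22 ± 1.37 (adjusted p = 0.607), with 5.57 on slide 1 but 0.87 on slide 2. Without Meis1-negative replicate 1 its difference was 0.99, and without replicate 2 it was 5.46. Mup1 differed by 2.90 ± 1.05 (adjusted p = 0.607), with 4.85 on slide 1 and 0.96 on slide 2, and it stood at 1.265 without Meis1-negative replicate 1 and at 4.54 without replicate 2. For both genes the size thus rested on Meis1-negative replicate 1. Fga differed by 2.13 ± 0.60 (adjusted p = 0.56), with nearer values of 2.31 on slide 1 and 1.96 on slide 2.

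The spread of the Meis1-negative arrays limits that comparison. Replicate 2 was above replicate 1 for 36 of the 39 liver genes, against 48.4% of all genes, with a median log2 gain of 2.00. Most lists described below rose too, with a median gain of 1.88 for both pan-epithelial and cortical TEC markers. Apart from thymocyte markers (-4.57), the other lists ran from 0.05 (fibroblast) to 2.65 (endothelial). Replicate 1 was below both Meis1-low arrays for 35 genes (34.2% of all genes), and replicate 2 for 28 (35.4%). The thymocyte markers moved the opposite way between these arrays, as given above, and their part in the difference was not tested. With Meis1-negative replicate 2 left out, limma called 8 liver genes higher in Meis1-low (Ambp, Apoa1, Apoa4, Apob, Apoc2, Fgb, Fgg and Mup1), with replicate 1 assumed to vary like the other gates. Of all 18218 genes tested there, 931 were called higher in Meis1-low (5.11%) and 340 lower. Without replicate 1, the median difference was 0.58 and 0 genes were called.

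Meis1-high and Meis1-negative, the gates of small cells, share arrays with both other comparisons, and their liver gene levels were not ordered alike on the slides. The median log2 difference was -0.30 (0.17 over all genes and -0.10 over tested genes). For the liver genes it was 0.52 on slide 1 and -1.45 on slide 2, and 23 of the 39 had opposite signs. Within both slides, 8 genes gave the lower value to Meis1-high (22.2% of all genes) and 8 the higher value (39.4%). The arrays did not overlap for 5 genes lower in Meis1-high (14.1% of all genes) and 5 higher (18.1%). limma called 0 of 34 (0.0% of all genes), with adjusted p from 0.45 to 0.999. At an unadjusted p under 0.05 in the fit without the filter, 3 were lower (3.41% of all genes) and 4 higher (4.63%). Meis1-high minus Meis1-negative was 2.60 ± 1.03 for Crp (adjusted p = 0.45), with 4.08 on slide 1 and 1.12 on slide 2. Apoc1 differed by 2.26 ± 0.97 (adjusted p = 0.477), with 3.55 on slide 1 and 0.96 on slide 2, and Rbp4 by 1.79 ± 0.72 (adjusted p = 0.451), with 2.64 and 0.95. These 3 genes had the larger value on slide 1. Fgb differed by -2.06 ± 0.88 (adjusted p = 0.471), and its difference was -3.14 without Meis1-negative replicate 1 and -0.98 without replicate 2. Afp differed by -1.94 ± 0.84 (adjusted p = 0.479), with -2.71 and -1.18 in the same order. Both were lower in Meis1-high within both slides.

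Meis1-negative replicate 2 lay above both Meis1-high arrays for 28 of the 39 liver genes (31.6% of all genes). Without that array, the median of Meis1-high minus Meis1-negative turned to 0.81 and limma called Crp (4.23, adjusted p = 0.0342), as it called 604 genes higher (3.32%) and 347 lower of all 18218 tested. Without replicate 1 instead, the median was -1.45, the difference of Crp was 0.97 (adjusted p = 0.795), and that of Apoc1 was 0.98, against 3.54 without replicate 2.

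Other liver genes, from lists compiled for the same tissue, differed less evenly. Of 38 other secreted liver proteins on the array, 20 were lower in Meis1-high than in Meis1-low on both slides and 14 higher, with a median log2 difference of -0.88. Of 29 other metabolic genes, 17 were lower and 4 higher (median -1.07). limma called 0 in both lists. Among the secreted proteins, the complement gene Cfb differed by -3.78 ± 1.06 (adjusted p = 0.258) and Lcat, the enzyme that esterifies cholesterol in plasma, by 2.55 ± 0.92 (adjusted p = 0.324). Of 20 intestinal enterocyte genes, which are typical of another organ, 16 were lower in Meis1-high within both slides and 1 was higher (median -1.52). The sucrase-isomaltase gene Sis had levels of -3.88 and -4.74 in Meis1-high, of -0.55 and -0.47 in Meis1-low and of -4.03 and -1.26 in Meis1-negative. The order of gates seen for most liver genes was also present in a list of intestinal genes.

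The 22 liver transcription factors showed no common direction, with 8 lower and 8 higher in Meis1-high on both slides and a median difference of 0.01. The 3 probes of Hnf4a disagreed. The one well above background on all arrays differed by 0.67 ± 0.65 (adjusted p = 0.713), and one above background on 3 arrays had levels of -5.27 and -6.13 in Meis1-high, of -3.55 and -3.31 in Meis1-low and of -5.74 and -3.58 in Meis1-negative. Prox1, a homeobox factor of hepatocytes and lymphatic endothelium, differed by 3.53 ± 0.97 (adjusted p = 0.254) and was the highest of the list.

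Between Meis1-high and Meis1-low, mature medullary markers moved along with the liver genes, whereas pan-epithelial and cortical markers did not. All 10 mature medullary markers were lower in Meis1-high than in Meis1-low on both slides (median -2.06), with median levels of 2.06 and 2.27 in Meis1-high, of 3.67 and 3.69 in Meis1-low and of 0.87 and 3.23 in Meis1-negative. Aire had levels of 1.19 and 2.69, 3.87 and 4.65, and 1.22 and 3.84, and the costimulatory gene Cd80 had levels of -0.27 and -0.27, 1.91 and 2.05, and -2.12 and 1.78. Both genes were highest on the Meis1-low arrays, Aire by a narrow margin over Meis1-negative replicate 2. Meis1-negative replicate 1 lay well below replicate 2, as for most liver genes. Of the 10 markers, 5 had both Meis1-low arrays above both Meis1-negative arrays. Cd86 (1.98) and Ccl22 (2.63) were highest on Meis1-negative replicate 2. Pan-epithelial markers differed by a median of 0.48 and cortical markers by 1.99 in favour of Meis1-high.

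Lists of non-epithelial cells gave a mixed picture. Of 18 macrophage, Kupffer and dendritic cell markers, 11 were lower in Meis1-high within both slides and 3 higher, with median levels of -4.04 and -2.40 in Meis1-high, of -0.92 and -0.43 in Meis1-low and of -3.39 and -0.73 in Meis1-negative. Vsig4, a marker of Kupffer cells, the macrophages of the liver, was not above background on any array, while Clec4f, another, had levels of -5.26 and -2.67, -0.03 and -0.51, and -3.65 and -1.30. Neutrophil markers were lower in 5 of 7 (median -2.30) and erythroid markers in 6 of 7 (median -1.93), with Elane never above background. Adipocyte markers were lower in 4 of 8 (median -1.35), with Lep, Plin1 and Cfd never above background. Endothelial markers were lower in 1 of 6 (median -0.30) and fibroblast markers in 2 of 7 (median 1.65). The part of these cell types, and of the mature medullary state, in the liver gene differences was not tested.

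**Figure D4:**
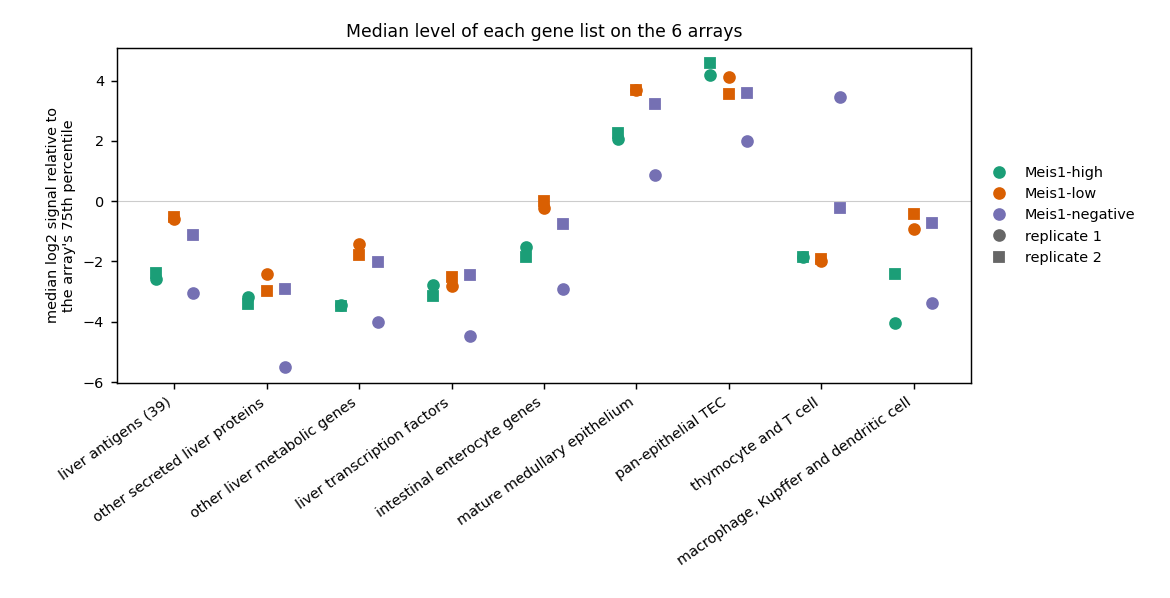
Median level of the 39 liver antigen genes and of 8 other gene lists on the 6 arrays, as log2 signal relative to the array's 75th percentile, with circles for replicate 1 and squares for replicate 2. The liver genes lie at -0.60 and -0.52 in Meis1-low and at -2.58 and -2.38 in Meis1-high, a gap also present for enterocyte, mature medullary and macrophage lists. Meis1-negative replicate 1 is the highest array only for the thymocyte list (3.46).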

How the data were processed

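Per the labels' protocols, Cy3-labelled cDNA was made from 10 ng of amplified RNA. The deposited intensity comes from Agilent Feature Extraction 9.5.3.1, per the file headers, after background subtraction and detrending. For 15.5% to 28.2% of the spots the software put in a surrogate value. The authors' deposited log2 table, scaled per array and centred per probe, had correlations of at least 0.9998 with the scanner values used here and column medians of -0.168 to 0.156, so that its scale, centring and direction are known.

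Control spots and 53 to 78 outlier spots per array were left out, and spots of a probe were averaged. The log2 signal was set relative to the 75th percentile of its array. Probes marked well above background (13 background SDs, per the file headers) on both arrays of a gate were tested, and the probe with the highest mean stood for a gene. limma 3.58.1 (R 4.3.3) was fitted with 1 mean per gate over 6 arrays (3 residual and 4.34 prior degrees of freedom), with Benjamini-Hochberg adjustment over 18224 genes and a threshold of 0.05. Probe positions are mm9, and no mm9 annotation was used. RefSeq GRCm38.p6 gave names, gene order and promoters.

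Per the headers the replicate number is the slide, with the same slide position per gate both times, so position and gate cannot be told apart. Replicate differences of the gates correlated at 0.209, 0.128 and 0.125. Alternatives were normexp, quantile and median scaling, other filters, a floor, the slide as replicate block, probe means, the authors' values, a trended robust fit and each array left out.

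The members and lists were chosen with earlier results of these data known. By rule, every member was accounted for, with array values for up to 30, and from other lists fixed genes and up to 3 with the largest and smallest difference. Some items covered by the rule are not reported here. The Mup copies, Apoa5 and Apoe were added as relatives or neighbours of members. Gates have 2 arrays, which limits precision.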

Additional observations from a re-analysis of the deposited data

How the results depend on the processing

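Between Meis1-high and Meis1-low, 30 of the 34 tested liver genes kept their direction under every alternative, and the exceptions were Gc (0.57 without Meis1-high replicate 2, -2.15 without replicate 1), Apoc1 (-0.37 without Meis1-low replicate 2, 1.17 without replicate 1), Vtn (-0.014 with normexp, -0.021 without Meis1-high replicate 1, 1.45 without replicate 2) and Hpd (0.25 with the floor, 0.13 without Meis1-high replicate 1, -1.73 without replicate 2). The cause was not tested. The median of the 39 moved from -1.84 to -0.59 with normexp, which adds an offset of 50 to every signal. It moved to -1.21 with the floor, which raises dim signals to the lowest signal above background. Over the 31 genes above background on at least 4 arrays it was -2.10, and with arrays left out it ran from -1.95 to -1.71. Normexp called 5 liver genes and every other alternative 0. Normexp also raised the calls over all genes from 0 (854 higher and 1507 lower at an unadjusted p under 0.05) to 103 higher and 174 lower. The normexp fit gave every gene the same spread. The median between Meis1-high and Meis1-negative turned to 0.10 with normexp and ran from -1.45 to 0.81 with arrays left out, with 0 to 1 genes called, and Fga turned from -1.48 to 0.15 with normexp. Between Meis1-low and Meis1-negative it ran from 0.58 to 2.46, with 0 to 8 genes called. With the replicate block, that is, the slide, 0 liver genes were called in each comparison. The block, like the trended robust fit, leaves the differences themselves unchanged by design, so neither tests their direction. In 100-base promoter windows, FOXA motifs stood in 1 member. On Meis1-high replicate 1 and Meis1-negative replicate 1, where 22 and 23 of the 39 genes were above background, dim genes have poorly measured levels.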
